A study of Mus musculus with 29 samples.

Results

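Ribosome-bound RNA from the microglial lineage was compared with RNA extracted conventionally from whole brain tissue of the same mice. The libraries compared were the positive fractions and the whole tissue samples of the Cx3cr1-NuTRAP line, taken from the 5 animals that had both (numbers 192, 194, 209, 210 and 277), which makes 10 of the 29 libraries of the series. Animal 155 had a positive fraction but no whole tissue library and was left out of the comparison. All animals carried Cx3cr1-Cre/Ert2+ and NuTRAP+ and had received tamoxifen, so both groups share the genotype and the treatment, and tissue was taken some weeks after tamoxifen. The mice were young adults of both sexes, and the labels do not give the sex of each. For the positive fraction, 1 hemisphere was homogenised in a detergent buffer with cycloheximide and cleared by centrifugation. EGFP-tagged ribosomes were captured from the cleared homogenate with an antibody and magnetic beads, the unbound part being the negative fraction and a portion of the cleared homogenate kept beforehand being the input. The study's methods allow a short or an overnight incubation with the antibody and do not say which library had which. The whole tissue samples, titled Slice, are conventionally isolated brain RNA that went through neither the clearing nor the capture, and the sources used here do not say which part of the brain they held. Both kinds of sample were sequenced from polyA-selected, strand-specific libraries, and the comparison asks how the microglial pulldown differs from the RNA of the tissue as a whole.

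In translating ribosome affinity purification, a tagged large-subunit ribosomal protein is expressed only in cells that carry Cre, and mRNA is recovered with the ribosomes that were translating it. Microglia are the resident macrophages of the brain parenchyma, depend on signalling through Csf1r, and are known for purinergic surveillance receptors, complement production and a high lysosomal content. The Cre of this line is driven from the Cx3cr1 locus, which border-associated macrophages of the meninges, perivascular space and choroid plexus also use. RNAs that stay in the nucleus, and cells that resist homogenisation, are present in a whole tissue extract and may be lost or kept differently by a lysate that is cleared before capture.

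Sfpi1, the file's symbol for PU.1, is the ETS-family factor that specifies macrophages, and the letters GAGGAAG are a common core of its binding sequence. They occurred on either strand in 18 of the 56 RefSeq promoters found for higher members of 5 microglial and macrophage lists (32.1%), against 1404 of 10729 promoters of all tested genes (13.1%) and 3658 of all 27025 promoters (13.5%). Over the microglial genes from cell-sorting studies that were higher in the positive fraction, 56 of 177 promoters held them (31.6%), and over the endothelial list 7 of 26 (26.9%). The E-box letters CAGCTG, searched in the same way, were found in 25% of the first set and in 15.2% of the promoters of all tested genes. A match describes letters in a window and is not a binding site. Both strings were counted separately, so a promoter may hold both. The 4 promoters below belong to receptors and a complement subunit whose values follow, and the capitals mark GAGGAAG or its reverse complement. Each runs from 250 bases before to 50 bases after the RefSeq start site on GRCm38.p6, in the direction of the gene, at chr17:48346151-48346450 (plus strand) for Trem2, chr4:136892865-136893164 (minus strand) for C1qc, chr7:128062390-128062689 (plus strand) for Itgam and chr2:14229164-14229463 (plus strand) for Mrc1.
Trem2: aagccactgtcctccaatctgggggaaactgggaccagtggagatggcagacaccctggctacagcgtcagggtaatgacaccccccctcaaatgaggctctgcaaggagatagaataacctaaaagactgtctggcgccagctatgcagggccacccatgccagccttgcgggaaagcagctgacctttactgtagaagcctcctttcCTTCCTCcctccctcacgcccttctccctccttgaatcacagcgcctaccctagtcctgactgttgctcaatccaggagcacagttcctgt
C1qc: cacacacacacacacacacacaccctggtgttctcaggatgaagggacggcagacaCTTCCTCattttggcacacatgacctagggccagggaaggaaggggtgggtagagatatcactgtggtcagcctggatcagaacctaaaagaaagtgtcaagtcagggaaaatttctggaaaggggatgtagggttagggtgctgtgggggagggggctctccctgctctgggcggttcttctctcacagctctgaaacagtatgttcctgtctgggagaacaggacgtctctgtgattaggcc
Itgam: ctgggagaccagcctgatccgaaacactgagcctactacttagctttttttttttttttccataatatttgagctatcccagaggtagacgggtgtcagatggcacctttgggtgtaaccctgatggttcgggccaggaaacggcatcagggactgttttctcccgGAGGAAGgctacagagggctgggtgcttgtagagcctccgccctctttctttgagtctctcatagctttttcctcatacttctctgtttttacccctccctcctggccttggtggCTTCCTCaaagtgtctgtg
Mrc1: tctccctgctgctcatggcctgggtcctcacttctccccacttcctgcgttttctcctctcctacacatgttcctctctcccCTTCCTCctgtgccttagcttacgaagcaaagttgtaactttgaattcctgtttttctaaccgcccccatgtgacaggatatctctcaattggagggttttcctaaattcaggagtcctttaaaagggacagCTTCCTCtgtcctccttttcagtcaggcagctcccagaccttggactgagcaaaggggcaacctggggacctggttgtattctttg
The match began 41 bases before the start site in Trem2 and 194 bases before it in C1qc, and Itgam and Mrc1 held 2 matches each. Of the 24 named microglial and macrophage genes that were higher, 17 had a promoter in the table and 5 of these held the letters, which are the 4 shown and Pf4.

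The libraries held 15486534 to 19831159 counts in the positive fractions and 18993854 to 25026591 in whole tissue, except the whole tissue of animal 210, which held 4260795. Fraction separated the libraries on the first principal component (67.4% of variance). On the second (12.2%), the positive fraction of animal 194 lay farthest out at -40.4, that of 192 was at -8.4 and those of 209, 210 and 277 were at 12.5 to 31.8, with whole tissue at -7.4 to 4.5. The whole tissue of animal 210 lay alone on the third (8.8%). Levels are given below as CPM, counts relative to the library total after TMM scaling, which is not a scale per length and so serves to compare libraries and not genes. Where 5 values are listed, the animals follow in the order 192, 194, 209, 210 and 277.

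Xist, the nuclear RNA that coats the inactive X chromosome, and the Y-linked genes Ddx3y, Eif2s3y, Uty and Kdm5d divided the animals into 192 and 194 on one side and 209, 210 and 277 on the other. With the scaling of the whole series, Xist was at 1527 and 3174 CPM in the positive fractions of animals 192 and 194, and at 2.34, 2.62 and 3.35 CPM in those of 209, 210 and 277. The summed Y-linked level was at most 1.41 CPM in the first 2 and 104 to 134 CPM in the other 3. The whole tissue of animal 210 fitted neither set: its Xist level was 62.2 CPM (278 counts), against 1.27 to 2.62 CPM in the input, negative and positive fractions labelled with the same animal, while its Y-linked level was 122 CPM. Whether this library holds RNA of more than 1 animal was not tested, and each ratio within animal 210 rests on it. Any difference between animals 192 and 194 on one side and 209, 210 and 277 on the other therefore cannot be told apart from sex.

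Over all genes, the positive fraction differed from whole tissue in about equal numbers each way. Of 13514 tested genes, 3300 were higher (24.4%) and 3414 lower (25.3%) at an adjusted p under 0.05 in edgeR's quasi-likelihood test, with a median log2 fold change of 0.02. A gene was tested when every library of at least 1 group held more than 20 counts. Of the tested genes 11905 met this in both groups, 1553 only in the positive fractions and 56 only in whole tissue, where the library of animal 210 had the lowest total. A gene that entered through the group where it is high was bound to lean that way, so the microglial and macrophage counts below are given with the number of members that met the minimum in both groups. More than 5-fold higher were 310 genes, of which 204 entered only through the positive fractions, and more than 5-fold lower were 26, of which 8 entered only through whole tissue. Among genes that met the minimum in both groups, 106 and 18 were past these folds. The numbers were 409 and 75 with no minimum and 337 and 55 without the whole tissue of animal 210. Of the 310, 159 (51.3%) were on the cell-sorting microglia list or on one of 7 lists of microglia, macrophages, lysosomes and inflammation, and 151 were not. The 5 positive and 5 whole tissue values did not overlap for 2035 genes on the higher side (15.1%) and 2326 on the lower side (17.2%).

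**Figure D1:**
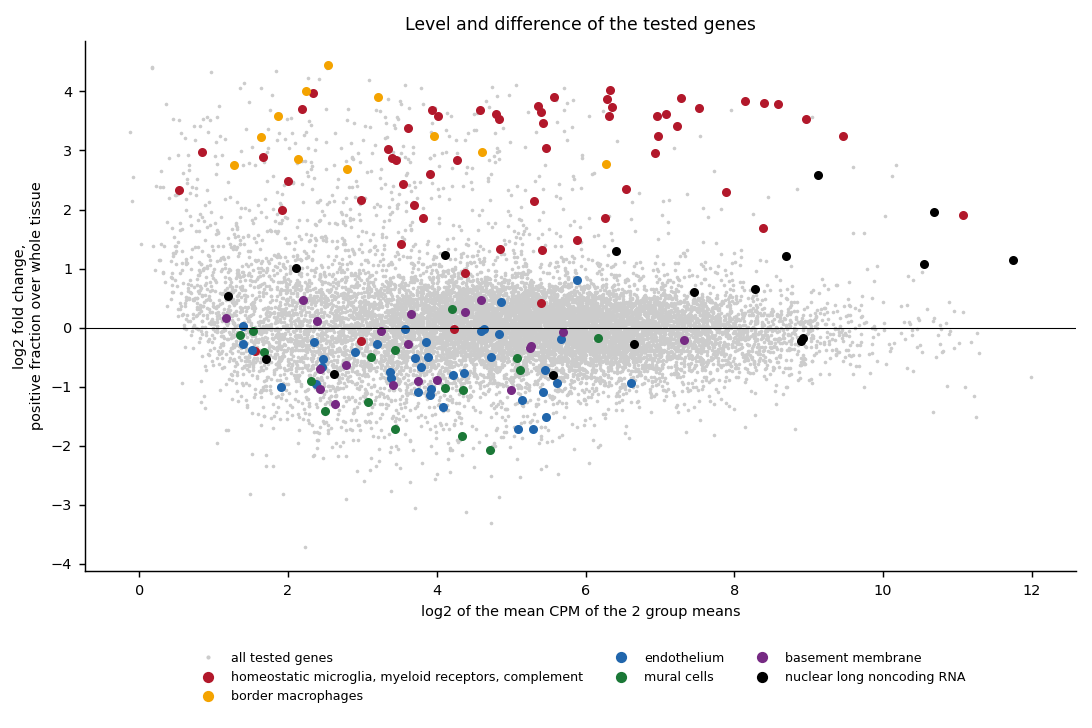
Log2 fold change of the positive fraction over whole tissue (vertical axis) against the log2 of the mean of both group means in CPM (horizontal axis), 1 point per tested gene (13514, grey), with the tested members of lists in colour. Homeostatic, receptor and complement genes (red) and border macrophage genes (orange) have medians of 2.46 to 3.33, while endothelial (blue) and mural (green) genes have medians of -0.66 and -0.72 and nuclear long noncoding RNAs (black) span both sides of 0; basement membrane genes are purple.

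Genes of homeostatic microglia were higher in 20 of 20 cases, with a median log2 fold change of 3.33 and no overlap between the groups in any of the 20, of which 18 met the count minimum in both groups. Cx3cr1, the fractalkine receptor gene whose locus carries the Cre (chr9:120048683-120068296, minus strand, GRCm38), was at 283, 448, 195, 222 and 229 CPM in the positive fractions and at 23.3, 26.4, 21.9, 39 and 21.6 CPM in whole tissue. Every positive value was above every tissue value, a 10.6-fold difference (log2 3.41, SE 0.25, edgeR adjusted p = 1.99e-06). The purinergic receptor gene P2ry12 was at 229, 348, 146, 172 and 187 CPM against 25.8, 27.8, 25.7, 31.4 and 29.6 CPM, or 7.75-fold higher (log2 2.95, SE 0.21, edgeR adjusted p = 1.83e-06). Tmem119, a marker of parenchymal microglia with no settled function, was 12.2-fold higher, and Csf1r, the receptor on which their survival depends, 11.6-fold. Sall1, a factor that maintains microglial identity, was 2.81-fold higher, and its level in input was already above that in whole tissue (log2 0.44, edgeR adjusted p = 0.00292). All 20 were also higher in animals 209, 210 and 277 alone (median 2.98), in 192 and 194 alone (3.71) and without the whole tissue of animal 210 (3.42). A higher level in a pulldown may come from more cells of a type or from more RNA per cell, and bulk samples cannot tell these apart.

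The input of the same 5 animals gave values for each step, in comparisons that share libraries with the one above. Over the homeostatic list, the median log2 difference was 0.01 between input and whole tissue and 3.24 between positive fraction and input. Over all genes, 16.5% of 13648 tested were higher and 15.0% lower in input than in whole tissue, and 23.8% of 13885 were higher and 25.9% lower in the positive fraction than in input.

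Transcription factors of the macrophage lineage were higher in 9 of 11 tested cases and lower in 2, with 6 higher and 2 lower among the 8 that met the count minimum in both groups. Sfpi1 was at 61.9, 109, 42.6, 46.4 and 53 CPM in the positive fractions against 2.79, 2.36, 3.25, 8.31 and 3.98 CPM in whole tissue, with no overlap (17.3-fold, log2 4.11, SE 0.35, edgeR adjusted p = 4.18e-06). Irf8, a partner of PU.1 in myeloid differentiation, was 9.86-fold higher, Lyl1, a basic helix-loop-helix factor of haematopoiesis, 13.1-fold, and Runx1, active in the yolk sac origin of microglia, 5.94-fold. Of these, Lyl1 and Runx1 met the count minimum only in the positive fractions. The lower factors were Mef2a, of the MADS-box family, with a log2 fold change of -0.72 (edgeR adjusted p = 3.27e-04), and Tal1, a relative of Lyl1, with one of -0.44 (edgeR adjusted p = 0.0407, and 0.111 with the animal as a block).

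Of 28 tested myeloid receptors and signalling genes, 27 were higher (median log2 fold change 2.93) and none was lower. The count minimum was met in both groups by 15, of which 14 were higher, while the other 13 entered only through the positive fractions. Trem2, the lipid-sensing receptor whose promoter is shown above, was at 149, 245, 103, 121 and 141 CPM against 7.18, 9.37, 10.3, 9.24 and 10.3 CPM (16.4-fold, log2 4.03, SE 0.23, edgeR adjusted p = 8.33e-07). Its adaptor Tyrobp was 14.8-fold higher, and Fcer1g, the shared Fc receptor chain, 15-fold. Itgam, the integrin chain known as CD11b, was at 215, 394, 149, 179 and 204 CPM against 23.6, 20.5, 20.4, 30.2 and 26.7 CPM (9.5-fold). Ptprc, the leukocyte phosphatase CD45, differed 5.4-fold and Tlr2, a sensor of bacterial lipoproteins, 4.48-fold, though Ptprc and Tlr2 met the count minimum only in the positive fractions. For each of these genes the groups did not overlap.

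Complement genes were higher in 7 of 10 tested cases and lower in none (median 2.46), and 6 of the 7 higher genes met the count minimum in both groups. The 3 genes of C1q, which encode the chains of the recognition molecule of the classical pathway, had the largest values of the list. C1qa (chr4:136895916-136898844, minus strand) was at 651, 1009.6, 408, 506 and 582 CPM against 39.5, 35.5, 44.4, 63 and 46.9 CPM, 13.9-fold higher (log2 3.80, SE 0.25, edgeR adjusted p = 1.37e-06), and C1qb and C1qc were 13.8-fold and 14.2-fold higher. The receptor genes C5ar1 and C3ar1 had log2 fold changes of 3.71 and 2.84 and properdin (Cfp) one of 2.07. All 3 passed the test, but C5ar1 met the count minimum only in the positive fractions. The component genes C3 and C4b and the inhibitor gene Serping1 did not pass, and C3 was at 1.24 to 3.13 CPM in the positive fractions and 2.39 to 4.39 CPM in whole tissue (log2 -0.39, edgeR adjusted p = 0.248).

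Lysosomal genes were higher in 18 of 23 cases and lower in none, with a smaller median (0.98) and a wide range. Ctss, a cathepsin characteristic of myeloid cells, was at 989, 1470.5, 654, 776 and 959 CPM against 74.8, 74.1, 86.6, 96.1 and 77 CPM (11.9-fold), and Laptm5, a lysosomal membrane protein of leukocytes, was 12.9-fold higher. Ctsd, an aspartic protease made by most cells, differed 3.71-fold and Ctsb, a similarly general cysteine protease, only 1.27-fold (edgeR adjusted p = 0.00532). Lamp2, a general lysosomal membrane protein, did not pass (log2 -0.18, edgeR adjusted p = 0.117).

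Genes of border-associated macrophages were higher in 11 of 11 tested cases, with a median log2 fold change of 3.23. Only 2 of the 11 met the count minimum in both groups, and the other 9, Pf4, Lyve1 and Cd163 among them, entered through the positive fractions, so the count and the median are partly set by that minimum. Mrc1, the mannose receptor, was at 36.9, 84, 27.9, 32.9 and 33.3 CPM against 4.43, 4.69, 6.77, 6.47 and 5.4 CPM (7.88-fold, log2 2.98, SE 0.30, edgeR adjusted p = 1.48e-05). Pf4, a chemokine of perivascular and meningeal macrophages, was at 10.5, 22.3, 5.16, 7.33 and 9.43 CPM against 0.355, 0.244, 0.703, 1.39 and 0.419 CPM (21.8-fold), and Lyve1, a hyaluronan receptor of the same cells, was 16.1-fold higher. Cd163, the scavenger receptor for haemoglobin, was 6.4-fold higher. The positive fraction of animal 194 was the highest for Mrc1, Pf4, Cd163 and Lyve1, and the list's median within that animal was 4.57, against 2.27 to 3.34 within the others.

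Circulating leukocytes left few counts. Of 16 monocyte and neutrophil genes only 3 could be tested: Fn1, which vessels also make, was lower (log2 -1.06), Mmp9 did not pass (log2 0.79), and the chemokine receptor gene Cxcr2 passed over all animals (log2 1.38). Cxcr2 was at 23.2, 14.4, 6.8, 7.44 and 11.7 CPM against 4.79, 3.59, 2.77, 10.6 and 4.77 CPM, so that the groups overlapped and animal 210 had more in tissue. It did not pass without the positive fractions of 192 and 194, in animals 209, 210 and 277 alone, or with animal 192, 194 or 277 left out. Of 16 lymphocyte genes only Cd22, which microglia also express, was tested and was 4.53-fold higher, having entered only through the positive fractions. Ccr2, the receptor of inflammatory monocytes, was at 0.77 to 1.46 CPM in the positive fractions and 0.266 to 1.39 CPM in whole tissue, too few counts to be tested. Of the T cell receptor genes, Cd3e did not exceed 0.122 CPM in any positive fraction, while Cd3d was at 1.22, 1.91, 0.397, 0.312 and 0.612 CPM there and at most at 0.462 CPM in whole tissue, with too few counts to be tested.

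Inflammatory and immediate early genes, which brain microglia can switch on during handling, were described separately. Of 19 inflammatory genes 7 could be tested, of which 6 were higher (median log2 fold change 0.97), but 5 of the 6, Il1a among them, met the count minimum only in the positive fractions. Il1a was at 3.01, 4.33, 1.14, 1.66 and 3.18 CPM against 0.266, 0.367, 0.176, 1.15 and 0.524 CPM, overlapping between groups (log2 2.76, SE 0.48, edgeR adjusted p = 6.05e-04), while the cytokine genes Il1b, Tnf and Ccl3, at most 0.735, 0.562 and 1.72 CPM in any positive fraction, had too few counts to be tested. Of 21 immediate early genes, 10 were higher and 2, Nr4a3 and Klf4, were lower (log2 -0.99 and -0.48), beside 24.4% higher and 25.3% lower over all tested genes. The count minimum was met in both groups by 19, of which 8 were higher and 2 lower (median 0.34). Klf4 did not pass with the block (edgeR adjusted p = 0.0763). With the positive fractions of 192 and 194 left out, 13 of the 21 were higher and none lower (all genes 25.1% and 24.3%). In animals 209, 210 and 277 alone 9 were higher and none lower (all genes 17.2% and 17.3%), so neither Nr4a3 nor Klf4 passed in these settings. With animal 192, 194 or 277 left out neither passed either. Atf3, a stress-induced factor, was at 6.75 to 8.27 CPM in the positive fractions and 1.73 to 2.77 CPM in whole tissue (3.53-fold, log2 1.82, SE 0.19, edgeR adjusted p = 1.60e-05). It met the count minimum only in the positive fractions, so its lean was partly set by that minimum. Fos did not pass (log2 0.34, edgeR adjusted p = 0.185). The immediate early list had a median of 0.44 over whole tissue, 0.56 for input over whole tissue and -0.07 for positive fraction over input.

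**Figure D2:**
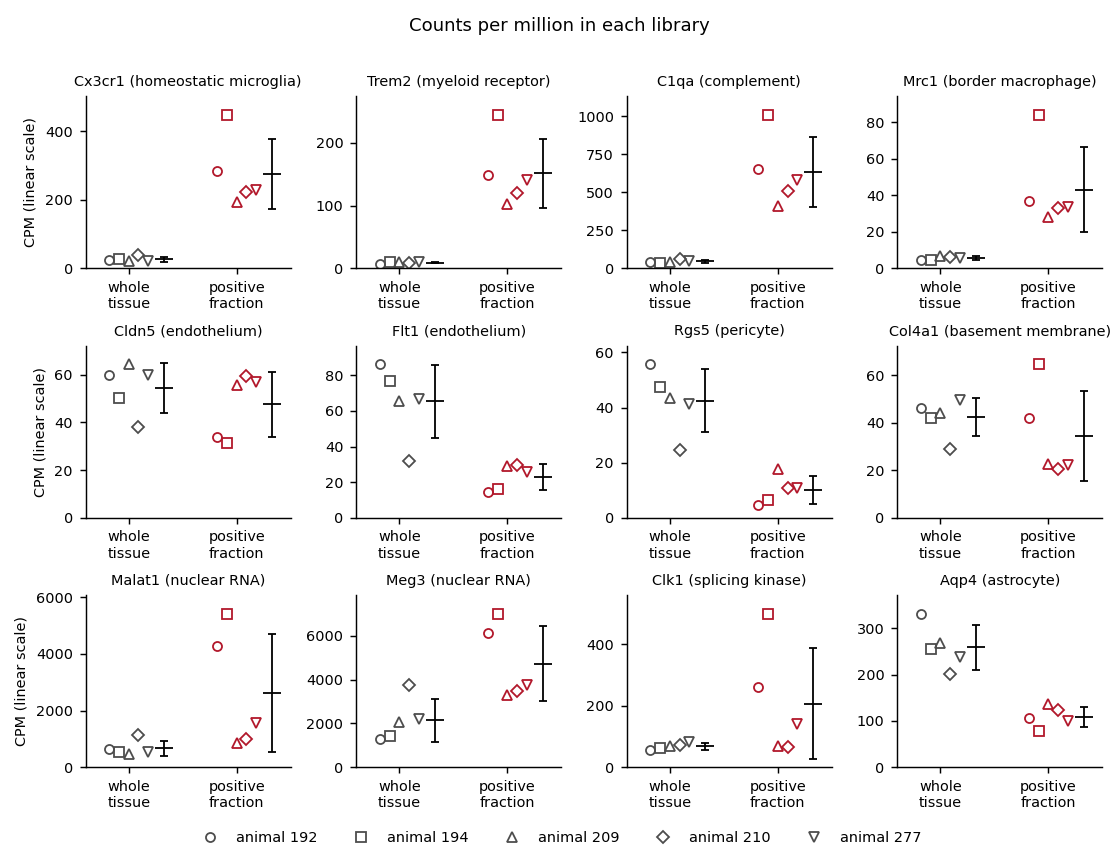
CPM of 12 genes in each library (linear axes from 0), whole tissue on the left in grey and positive fraction on the right in red, 1 symbol per animal, with mean and SD (n = 5) in black. Cx3cr1, Trem2, C1qa and Mrc1 are higher in all 5 positive fractions, Flt1, Rgs5 and Aqp4 are lower in all 5, and Malat1, Clk1 and Col4a1 have their highest 2 positive values in animals 192 and 194.

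The 12 largest rises that went 1 way in all 5 animals, each library holding over 20 counts, were Sfpi1, Lag3, Trem2, Ptpn6, Fcer1g, Fcrls, Tyrobp, Hcls1, C1qc, C1qa, Bin2 and C1qb. Lag3, an inhibitory immune checkpoint receptor, was at 104, 160.1, 65.1, 76.4 and 86.9 CPM against 4.17, 6.03, 5.14, 7.62 and 7.6 CPM (16.5-fold), and Ptpn6, the phosphatase SHP-1, and Hcls1, an actin-binding substrate of haematopoietic kinases, were 15.3-fold and 14.6-fold higher. Against the study's list of microglial genes from cell-sorting work, 229 of 237 tested members were higher and 2 lower, with a median of 2.60, and of the 151 that met the count minimum in both groups 143 were higher and 2 lower (median 2.35). The members that were lower were Cd83, an activation marker (log2 -0.64, edgeR adjusted p = 0.00437), and Sgk1, a glucocorticoid-induced kinase (log2 -0.49, edgeR adjusted p = 0.00443). Cd83 was already lower in input than in whole tissue (log2 -1.08) and was higher in the positive fraction than in input (log2 0.44).

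Endothelial genes were lower, but unevenly. Of 38 tested members 22 were lower (57.9%, beside 25.3% of all tested genes) and 1 higher, with a median log2 fold change of -0.66. Flt1, the VEGF receptor 1 (chr5:147562196-147725988, minus strand), was at 14.3, 16.2, 29.1, 29.5 and 25.8 CPM in the positive fractions and at 86.1, 76.5, 65.6, 32.1 and 66.4 CPM in whole tissue. No positive value reached a tissue value, a fall by 1.52 on the log2 scale (SE 0.26, edgeR adjusted p = 5.71e-04). The efflux pump Abcb1a and the endothelial phosphatase Ptprb were the lowest of the list at -1.72 and -1.71, and the blood-brain barrier transporters Slco1a4 and Slc2a1 were at -1.22 and -0.93. Ablim3, an actin-binding protein that other brain cells also make, was the member that was higher (log2 0.80). Cldn5, the tight junction claudin used as an endothelial marker (chr16:18776847-18778262, plus strand), did not pass: it was at 34, 31.6, 55.7, 59.6 and 57 CPM against 59.9, 50.1, 64.4, 37.9 and 60.1 CPM (log2 -0.20, SE 0.20, edgeR adjusted p = 0.413). Its lowest values were in the positive fractions of animals 192 and 194, and without these the difference was 0.09 on the log2 scale. In animals 209, 210 and 277 alone 13 of 39 tested endothelial genes were lower (all genes 17.3%), and in 192 and 194 alone 28 of 40 (all genes 22.6%).

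The endothelial list differed in direction between the steps. Its median was -1.06 for input over whole tissue and 0.33 for positive fraction over input. Cldn5 was lower in input than in whole tissue (log2 -0.95, edgeR adjusted p = 1.41e-04) and higher in the positive fraction than in input (0.76, edgeR adjusted p = 0.00404). Pecam1, the platelet endothelial adhesion molecule, had values of -1.30 and 0.80 for the same steps, and Ly6c1, a glycoprotein of brain capillaries, -1.24 and 1.14. Flt1 was lower at the first step (-1.62, edgeR adjusted p = 1.90e-04) and had a value of 0.10 at the second that did not pass (edgeR adjusted p = 0.682). Whether transcripts of vessels reach the beads by expression of the tag, by carry-over from the homogenate or otherwise was not tested.

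Of 17 tested genes of mural cells, the pericytes and smooth muscle of vessel walls, 10 were lower and none higher (median -0.72, with -0.49 for input over whole tissue and -0.38 for positive fraction over input). Rgs5, a regulator of G protein signalling used as a pericyte marker (chr1:169655501-169693526, plus strand), was at 4.49, 6.52, 17.7, 10.9 and 10.8 CPM against 55.7, 47.6, 43.5, 24.5 and 41.2 CPM, with no overlap (a fall by 2.08 on the log2 scale, SE 0.32, edgeR adjusted p = 2.39e-04). Notch3, the receptor of mural identity, and Pdgfrb, which recruits pericytes, were at -1.84 and -1.06. Myh11, the smooth muscle myosin, moved with the animal: it was at 15.6 and 22.3 CPM in the positive fractions of animals 192 and 194, at 1.77 to 4.53 CPM in the other 3, and at 8.31 to 14.9 CPM in whole tissue (log2 -0.38, edgeR adjusted p = 0.583). Acta2 is listed at 0 in all 10 libraries.

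**Figure D3:**
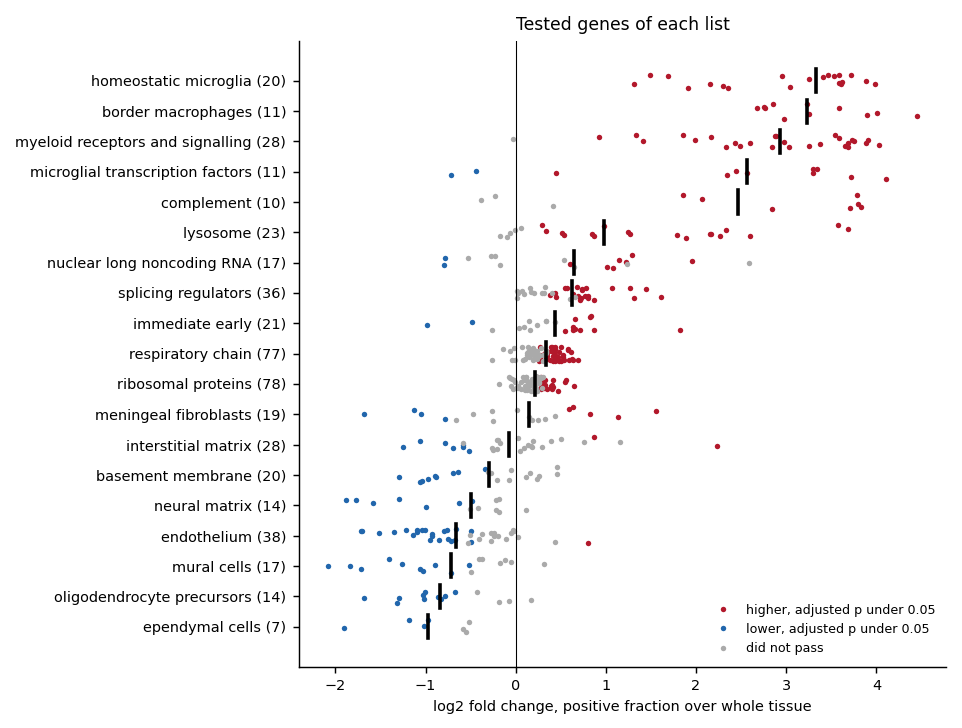
Log2 fold change of the positive fraction over whole tissue for every tested gene of 19 lists (1 point per gene, number tested in brackets), red where higher and blue where lower at an adjusted p under 0.05 and grey where the test was not passed, with the median as a black bar. The 5 uppermost lists are microglial and macrophage lists with medians from 2.46 to 3.33, and the endothelial and mural lists have medians of -0.66 and -0.72.

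Basement membrane genes were lower in 9 of 20 tested cases (45%) and higher in none, with a median of -0.30. Over all tested genes 25.3% were lower, and in the 2 longest of the length bins described below 33.6% and 49.7%. Lamc1, the laminin gamma 1 chain (chr1:153218922-153332786, minus strand), was at 21, 16.6, 22.7, 22 and 21.1 CPM against 47, 44.4, 41.8, 41.6 and 41.2 CPM (a fall by 1.06 on the log2 scale, SE 0.10, edgeR adjusted p = 6.88e-06), and Lama2, Nid1 and Hspg2, of the laminin network, its linker and perlecan, were at -0.89, -0.97 and -0.90. The type IV collagen genes were divided by animal: Col4a1 was at 41.9 and 64.6 CPM in the positive fractions of 192 and 194 and at 20.4 to 22.6 CPM in the other 3, against 29.1 to 49.7 CPM in whole tissue, and did not pass (edgeR adjusted p = 0.4). All 20 tested basement membrane genes have long transcripts, in the 2 longest of 5 length bins described below, and after subtracting the median of all genes of the same length bin the list's median was 0.01, whereas that of the endothelial list was -0.67 and that of the mural list -0.75. Without the positive fractions of 192 and 194, 12 of 20 basement membrane genes were lower and the median was -0.74, beside -0.44 for the endothelial and -0.74 for the mural list. In that setting 24.3% of all tested genes and 54% of the longest bin were lower. With 1 animal left out, the basement membrane median ran from -0.57 (without 194) to -0.09 (without 277).

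Of 28 interstitial matrix genes 7 were lower (25%) and 2 higher (7.14%), against 25.3% lower and 24.4% higher over all tested genes. The list's median was -0.08, and within animals it was 0.13, 0.41, -0.32, -0.37 and -0.50. Without the positive fractions of 192 and 194, 9 were lower and 1 higher (median -0.23, all genes 24.3% lower and 25.1% higher). In animals 192 and 194 alone 5 were lower and 7 higher (0.25, all genes 22.6% and 21.1%). Without the whole tissue of 210 and 277, 3 were lower and 3 higher (all genes 24.5% and 23.5%). The higher were Col6a1 and Mgp, a calcification inhibitor (log2 0.87). Fn1, fibronectin, was at 22.1 to 27.7 CPM in the positive fractions and 34.9 to 65.9 CPM in whole tissue (a fall by 1.06 on the log2 scale), and the fibrillar collagen genes Col1a2 and Col3a1 were at -0.52 and -0.70. Col3a1 did not pass with animal 192, 209, 210 or 277 left out, and was at -0.11 in 192 and 194 alone. Col6a1, a chain of microfibrillar collagen, was higher in the fit (log2 2.23, edgeR adjusted p = 0.0076) but at 103, 204, 23.9, 21.1 and 45.4 CPM against 11, 15, 12.3, 30.5 and 19.1 CPM, so that animals 192 and 194 carried most of it, and it did not pass with the animal as a block (edgeR adjusted p = 0.0835). Sparc, a matrix glycoprotein that microglia also make, had 1089 to 1622 CPM in the positive fractions and 1097 to 1346 CPM in whole tissue (edgeR adjusted p = 0.551), but was lower in input than in whole tissue (log2 -0.83) and higher in the positive fraction than in input (0.93). Of the matrix genes made by neurons and glia, 7 of 14 were lower (50%) and none higher (median -0.50). Over all tested genes 25.3% were lower, and 49.7% in the longest of the length bins described below. The list's median length was 7150 bases, and its median was -0.46 after subtracting that of genes of like length. Among the lower were Tnr, tenascin R of perineuronal nets, at -1.88, Ptprz1, a chondroitin sulphate receptor phosphatase of glia, at -1.77, and Vcan, versican, at -1.30. Of 19 meningeal fibroblast genes 5 were higher (26.3%) and 4 lower (21.1%), shares near those over all tested genes (24.4% and 25.3%). The higher were Nupr1, Crabp2, Igf2, Serpinf1 and Fmod, and the lower Pdgfra, Slc6a20a, Lum and Foxc1. Of these, Crabp2, Fmod, Lum and Foxc1 did not pass without animal 192, and Crabp2 and Lum met the count minimum only in the positive fractions. Igf2, a growth factor of meninges and choroid plexus, was 1.76-fold higher and Pdgfra, which oligodendrocyte precursors share, 3.2-fold lower.

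Nuclear RNA was divided by animal. Of 27 long noncoding RNAs known to stay in the nucleus, 20 were in the table and 17 were tested, of which 7 were higher and 2 lower, with a median of 0.65. These shares were 41.2% and 11.8%, beside 24.4% and 25.3% over all tested genes. The positive and whole tissue values overlapped for each of the 7. Malat1, the abundant RNA of nuclear speckles (chr19:5795690-5802671, minus strand), was at 4288, 5416, 858, 996 and 1571 CPM in the positive fractions and at 652, 557, 465, 1147 and 559 CPM in whole tissue. The first 2 positive values were above all other values, and animal 210 alone was higher in tissue than in its positive fraction. The fitted log2 fold change was 1.96 (SE 0.49, edgeR adjusted p = 0.00621), and 1.64 with the animal as a block, where it did not pass (edgeR adjusted p = 0.0548).

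In Kcnq1ot1 and Snhg11 the first 2 animals were again the highest. Kcnq1ot1, an imprinted silencing RNA antisense to Kcnq1, was at 854 and 927 CPM in the positive fractions of 192 and 194 and at 358 to 393 CPM in the others, against 136 to 200.2 CPM in 4 whole tissue libraries and 601 CPM in that of animal 210 (log2 1.22, edgeR adjusted p = 0.0353, and 0.0524 with the block). Meg3, an imprinted RNA of neurons, was at 6098, 6992, 3296, 3485 and 3743 CPM against 1300.2, 1421, 2046, 3730.3 and 2222 CPM (2.2-fold, edgeR adjusted p = 0.00789), and did not pass without the positive fractions of 192 and 194. Snhg11 and Neat1, the RNA of paraspeckles, were higher (log2 1.08 and 0.60) and did not pass with the block (edgeR adjusted p = 0.204 and 0.0634). Sox2ot and Pvt1 were lower (log2 -0.80 and -0.78), with no overlap between groups. Xist, which did not pass the test and was picked out after its values were seen, was at 1527 and 3174 CPM in the positive fractions of animals 192 and 194, at 361 and 337 CPM in their whole tissue and at 146 and 164 CPM in their input, all with the scaling of the whole series.

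Within single animals, the median log2 ratio of the nuclear RNA list was 1.82 in 192, 1.58 in 194, -0.02 in 209, -0.52 in 210 and 0.22 in 277. Without the positive fractions of 192 and 194, 1 of 17 was higher and 3 were lower (median 0.16, all genes 25.1% and 24.3%). In animals 209, 210 and 277 alone none was higher and 3 were lower (0.02, all genes 17.2% and 17.3%). With the whole tissue of animal 210 left out instead, 8 were higher and 3 lower (0.94, all genes 27.1% and 26.8%). With the animal as a block 2 were higher and 2 lower (all genes 19.9% and 22.7%). Genes of splicing regulators, many of which are known to hold retained introns in the nucleus, were also highest in animals 192 and 194. Of 36 tested 22 were higher (61.1%, beside 24.4% over all tested genes) and none lower (median 0.62). The animals' own medians were 0.83, 1.18, 0.20, -0.07 and 0.41. Clk1, a kinase of splicing factors, was at 262, 498, 70.1, 65.3 and 140.2 CPM against 54.7, 62, 68.4, 72.7 and 81.8 CPM (log2 1.61, SE 0.48, edgeR adjusted p = 0.0145, and 0.127 with the block). Clk4, its close relative, was at 116, 177, 41.2, 41.3 and 73.5 CPM against 28.4 to 40.3 CPM, 2.73-fold higher with no overlap. It did not pass in animals 209, 210 and 277 alone (log2 0.56, edgeR adjusted p = 0.0917). Without the positive fractions of 192 and 194, 19 of 36 were higher and 1 was lower (median 0.34, all genes 25.1% and 24.3%). In animals 209, 210 and 277 alone 8 were higher and 1 lower (0.25, all genes 17.2% and 17.3%). The lower gene was Srrm2, a splicing coactivator, which did not pass over all animals (log2 0.09) and was at -0.55 and -0.58 in these settings (edgeR adjusted p = 0.00363 and 0.0148). The cause of the difference between animals was not tested.

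**Figure D4:**
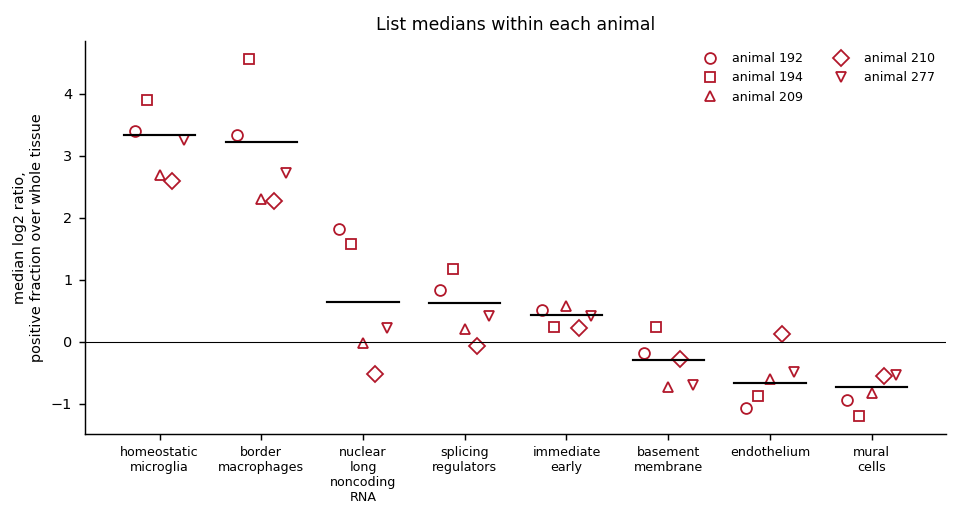
Median log2 ratio of positive fraction over whole tissue within each animal (red symbols) for 8 lists, with the median of the fitted log2 fold changes as a black bar. Homeostatic microglia and border macrophage genes lie at 2.27 or above in each animal, while the nuclear RNA list runs from -0.52 in animal 210 to 1.82 in animal 192.

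RNAs that lack a long polyA tail are poorly represented in polyA-selected libraries. Of 14 such small RNAs only Rn45s, the ribosomal RNA precursor, could be tested. It was lower (log2 -0.84, edgeR adjusted p = 0.0094), with values from 2176 to 4207 CPM in the positive fractions and 3611 to 7378 CPM in whole tissue, and as a multicopy gene its counts are uncertain. Its log2 ratios within animals were -0.14, -0.29, -0.45, -1.76 and -1.45. It did not pass without animal 210 or 277, without the whole tissue of both (-0.45), or in 192 and 194 alone (-0.23). It was lower in input than in whole tissue (-1.92) and had a value of 1.09 for positive fraction over input. Rn7sk is listed at 0 in all 10 libraries. Of 51 replication-dependent histone genes 13 were tested and 3 were higher (23.1%, beside 24.4% over all tested genes), namely Hist4h4 (log2 1.81), Hist3h2ba (0.70) and Hist3h2a (0.46). Hist4h4 met the count minimum only in the positive fractions, and of the 7 that met it in both groups 2 were higher. Among 12 tested host genes of small nucleolar RNAs 5 were higher (41.7%) and 1 lower, beside 42.4% higher in the shortest of the length bins described below. Their median was 0.34, and 0.06 after subtracting that of genes of like length. The lower gene was 2900097C17Rik (log2 -0.42, edgeR adjusted p = 0.0338, and 0.0548 with the block, where 1 host gene was higher and none lower). When the positive fractions of 192 and 194 were left out, 1 host gene was higher and 1 lower.

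Genes of ribosomal proteins and the respiratory chain have short and abundant mRNAs. Of 78 ribosomal protein genes 24 were higher (30.8%), none was lower and 54 did not pass (median 0.21). Of 77 respiratory chain genes 42 were higher (54.5%), none was lower and 35 did not pass (median 0.33). The share of higher genes was 24.4% over all tested genes and 42.4% in the shortest of the length bins described below. After subtracting the median of genes of like length, these medians were -0.05 and 0.07. Ndufa5, a complex I subunit, was at 104, 63.8, 89.1, 104 and 97.7 CPM against 52.5, 46.2, 64.7, 70.2 and 52 CPM (log2 0.69, edgeR adjusted p = 0.00238), while Rps6 and Atp5b were at 0.03 and -0.02 and did not pass. The counts moved more with the animals kept than the medians did. Without the positive fractions of 192 and 194 they were 55 of 78 and 71 of 77 (medians 0.30 and 0.42), beside 25.1% of all tested genes and 49.8% of the shortest bin. In animals 192 and 194 alone they were 7 of 78 and 6 of 77 (medians 0.18 and 0.22), beside 21.1% and 27.1%. Pseudogene copies of ribosomal protein genes can share reads with them, so these values carry that uncertainty.

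Rpl10a, whose protein carries the EGFP tag of the construct, was the most changed ribosomal protein gene. It was at 153, 164, 142, 160.4 and 171 CPM against 97.2, 92, 105, 102 and 106 CPM, 1.57-fold higher (log2 0.65, SE 0.07, edgeR adjusted p = 3.23e-05), and the table does not separate the transgene's reads from those of the native gene. Rangap1, part of which forms the nuclear tag, did not pass (log2 0.14, edgeR adjusted p = 0.125).

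The difference varied with transcript length. The 13421 tested genes with a length (the longest GENCODE transcript of each) were divided by length into 5 bins of equal size, whose median log2 fold changes went from 0.27 in the shortest (median 1509 bases) through 0.12, 0.01 and -0.11 to -0.31 in the longest (median 6950 bases). In the shortest bin 42.4% of genes were higher and 5.7% lower, and in the longest 9.02% were higher and 49.7% lower. The order held in each of the 5 animals, with medians of 0.18 to 0.36 in the shortest bin and -0.41 to -0.30 in the longest. Between input and whole tissue the 5 medians lay between -0.05 and 0.02, and between positive fraction and input they went from 0.31 to -0.35.

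Bins of the 3' untranslated length gave medians from 0.26 to -0.30, of the coding length from 0.16 to -0.23, and of GC content from -0.16 in the poorest to 0.20 in the richest. The measures overlap with one another and were not separated. In animal 194 the coding length medians were 0.01 in the shortest and -0.10 in the longest bin. The longest transcripts held 28.2% of binned counts in its positive fraction and 27.7% in its whole tissue. In the other animals they held 21% to 24.5% against 25% to 27.7%. Among the microglial genes from cell sorting, the median was 3.04 for the 111 in the 2 shortest bins, 2.34 for the 49 in the middle bin and 2.35 for the 77 in the 2 longest. Of the 638 genes that were more than 2-fold lower 634 had a length, and 49.8% of these were in the longest bin. The homeostatic median was 3.16 after subtracting that of the length bin.

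**Figure D5:**
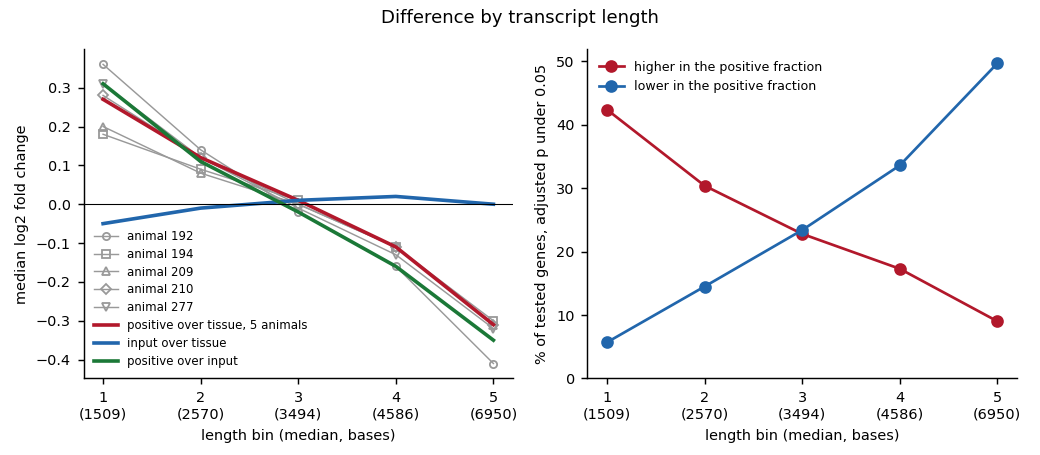
Left, median log2 fold change in bins of transcript length (median length in bases in brackets) for positive fraction over whole tissue in each animal (grey) and in the fit over 5 animals (red), input over whole tissue (blue) and positive fraction over input (green). Right, percentage of the tested genes in each bin that were higher (red) or lower (blue) in the positive fraction, from 42.4% higher in the shortest to 49.7% lower in the longest.

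The 12 largest falls by the same rule were Itgb8, Slc6a5, Erbb4, Klhl11, Chrm2, Aff2, Slc6a4, Lnpep, Tenm1, Uhmk1, Grin2a and Slc9a7. Itgb8, the integrin beta 8 chain that activates TGF-beta (chr12:119162803-119238276, minus strand, longest transcript 8403 bases), was at 3.4, 4.55, 5.96, 5.25 and 5.39 CPM against 62.5, 54.8, 51.2, 22.9 and 49.8 CPM, 9.89-fold lower (log2 -3.31, SE 0.24, edgeR adjusted p = 2.11e-06). Grin2a, an NMDA receptor subunit, and Erbb4, the neuregulin receptor of interneurons, were 5.54-fold and 8.27-fold lower. Slc6a5, the glycine transporter of brainstem and spinal neurons, varied among the whole tissue libraries themselves, from 8.91 to 85.7 CPM, and Slc6a4, the serotonin transporter, from 14.8 to 46.5 CPM. Over the 25 genes more than 5-fold lower that had a length, the median was 7065 bases, against 3493 over all tested genes with a length.

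Markers of astrocytes and oligodendrocytes were mostly lower, and those of neurons went both ways. Against the cell-sorting lists, 91 of 137 astrocyte genes were lower and 3 higher, Pax6, Gpc6 and Grin2c, the last not with the block (median -0.47), 131 of 191 oligodendrocyte genes were lower and 10 higher (-0.66), and 45 of 99 neuron genes were lower and 18 higher (-0.24). Without the whole tissue of animal 210, 6 astrocyte genes were higher, and without the positive fractions of 192 and 194, 28 neuron genes were. Aqp4, the astrocyte water channel, was at 107, 78, 136, 123 and 101 CPM against 331, 255, 269, 201 and 237 CPM, with no overlap (2.38-fold lower). Snap25, a synaptic vesicle fusion protein, was at 1779 to 2882 CPM against 2232 to 2956 CPM and did not pass (log2 -0.09, edgeR adjusted p = 0.609). The excitatory marker Slc17a7 and the inhibitory marker Gad1 were higher in the positive fraction than in whole tissue (1.7-fold and 1.55-fold), and both were already higher in input than in whole tissue (log2 0.85 and 0.48) with no call between positive fraction and input. The interneuron factors Sp8 and Dlx1 were higher over whole tissue (log2 2.08 and 1.60), higher in input than in whole tissue (1.66 and 1.21) and higher in the positive fraction than in input (0.46 each, edgeR adjusted p = 0.0101 and 4.81e-04). They varied among the whole tissue libraries, from 1.45 to 9.25 CPM and from 8.11 to 33 CPM. Sp8 did not pass in 192 and 194 alone (log2 1.36, edgeR adjusted p = 0.0917). The brain part in the whole tissue samples is not known, so it cannot be told apart from fraction.

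Oligodendrocyte precursor genes were lower in 10 of 14 cases (median -0.84), with Pdgfra at -1.68 and Gpr17, of committed precursors, at -1.32. Ependymal genes were lower in 4 of 7 cases (in 9 of 11 without the whole tissue of animal 210), which were Ak7, Ccdc153, Rarres2 and Foxj1, the factor of motile cilia, which was 2.02-fold lower. Choroid plexus genes were lower in 2 of 15 cases (13.3%, beside 25.3% of all tested genes), Enpp2 and Prlr (log2 -0.97 and -0.84), and higher in none (median -0.12). Without the whole tissue of 210 and 277, 2 were lower and 2 higher (median 0.44). The genes varied widely among libraries: Ttr, transthyretin, was at 791, 199, 949, 967 and 848 CPM in the positive fractions and at 360.1, 229.6, 172, 751 and 888 CPM in whole tissue (edgeR adjusted p = 0.279). The alpha globin gene Hba-a1, of erythrocytes, did not pass and ran from 16.7 to 249 CPM in the positive fractions and from 62.3 to 209 CPM in whole tissue, and its near-identical copy Hba-a2 makes both uncertain.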

How the data were processed

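RNA-seq libraries of 10 samples were compared, 5 positive fractions and 5 whole tissue samples of the same 5 animals. Reads were trimmed and aligned by the authors to mm10 in Strand NGS as directional reads and assigned to RefSeq genes, and the deposited table holds expected counts, 82.4% of whose values above 0 were not whole numbers within 1e-06. The authors also deposited log2 columns normalised with DESeq, which were not used. The table has 36172 gene rows and 0 columns without a sample. Counts were rounded to whole numbers, scaled by TMM, and a gene was tested when all libraries of 1 group or both exceeded 20 counts, with edgeR's quasi-likelihood test (R 4.3.3, edgeR 4.0.16, robust, two-sided, Benjamini-Hochberg adjustment, threshold 0.05). Standard errors were the log2 fold change divided by the square root of the F statistic. DESeq2 1.42.0 served as an alternative. The procedure was run on simulated counts with the same variability setting for every gene and no differences between animals. The simulation therefore does not cover the differences between animals seen here. p-values measure the spread between animals.

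The animal pairs the libraries by label, since both came from 1 mouse. Deviations of same-numbered libraries from their group means had correlations of -0.134, -0.1, 0.034, -0.114 and 0.042 in animals 192, 194, 209, 210 and 277, and a fit with the animal as a block was an alternative. Transcript lengths came from GENCODE vM21 on GRCm38 and promoters from RefSeq on GRCm38.p6. The cell-sorting lists are those the study used, made by other work on sorted cells. Members and lists were chosen with earlier results of these data known. Genes were named if marked as key members of a list, if among the 12 largest rises or 12 largest falls past the threshold with over 20 counts throughout and 1 direction in all 5 animals, or if among the 2 largest changes each way of a list. Cd83, Sgk1, Xist, the Y-linked genes, C5ar1, C3ar1, Cfp, C4b, Serping1, Srrm2 and the members of short counts were named after their values were seen. Some named genes are not reported here. Normalisation, filters, tool, block and left-out libraries were varied. Intervals across genes were not computed, and depth per library is given with the results.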

Additional observations from a re-analysis of the deposited data

Results flagged for a closer look

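Of 312 groups of 5 values of named genes or library totals, 32 held a value that lay far from the other 4 by Dixon's criterion (0.71 of the group's range), and chance flags about 1 in 20 groups. Most came from the whole tissue of animal 210, the library with the lowest total.
In that library, the macrophage and microglial genes Cx3cr1, Csf1r, Sfpi1, Irf8, Aif1, C1qc, Cd163, Fcrls, Hcls1, Bin2 and C3ar1 were above the other whole tissue values, at 39, 102, 8.31, 9.24, 13.4, 56.1, 4.16, 31.2, 8.31, 15.9 and 6.47 CPM in this order. So were Cxcr2 at 10.6 CPM, Foxc1 at 18.7 CPM and Hist3h2ba at 20.1 CPM. The nuclear RNAs Malat1 and Kcnq1ot1 were also above them, at 1147 and 601 CPM. Notch3, Klhl11 and Uhmk1 were below them, at 15.2, 24 and 33.5 CPM.
The positive fraction of animal 194 was above the other positive fractions for Sfpi1, Itgam, Mrc1, Cd163, Lyve1, Ptpn6, C5ar1, Mmp9 and Serpinf1, at 109, 394, 84, 26.4, 20.2, 92.8, 16, 14.3 and 25.6 CPM. It was below them for Lamc1 at 16.6 CPM and Ttr at 199 CPM. The positive fraction of animal 192 was the lowest for Pecam1 (17.6 CPM), and that of animal 210 the highest for Notch3 (11.1 CPM).
The positive fraction of animal 155, which entered no comparison, held C1qa at 564 CPM with the scaling of the whole series, against 34.4 to 61.1 CPM in whole tissue and 392 to 991 CPM in the other positive fractions.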

How the results depend on the processing

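The numbers of higher and lower genes stayed within 1.5 times those reported under every alternative, from 2304 (without animal 192) to 3724 (without animal 210) higher and 2313 to 3659 lower with 1 animal left out, and 2689 higher and 3065 lower with the animal as a block. The block ended the call of 14 named genes (Col6a1, Malat1, Neat1, Kcnq1ot1, Snhg11, Clk1, Tal1, Klf4, 2900097C17Rik, Grin2c, Gsn, Mprip, Dbn1 and Myh9, the last 5 with adjusted p of 0.075, 0.16, 0.13, 0.202 and 0.0826) and changed no other named gene's call. Leaving out 1 animal ended the call of Pecam1, Col6a1, Malat1, Neat1, Meg3, Kcnq1ot1, Snhg11, Clk1, Rn45s, Gsn, Mprip, Dbn1, Myh9, Tal1, Cxcr2, Nr4a3, Klf4, Col3a1, Crabp2, Fmod, Lum, Foxc1, 2900097C17Rik, Grin2c, Gpc6 and Rarres2. Settings that leave out libraries by fraction or keep only 1 set of animals were chosen after seeing the data.
These medians are over the genes tested in the comparison as reported. The immediate early median (0.44) was 0.61 without the whole tissue of 210, 0.61 without that of 210 and 277, and 0.32 to 0.60 with 1 animal left out. The basement membrane median (-0.30) was -0.74 without the positive fractions of 192 and 194 and -0.57 to -0.09 with 1 animal left out. The median of protein-coding genes (0.01) was 0.03 with library totals, no filter, a minimum of 100 counts, or without the whole tissue of 210 or of 210 and 277, 0.06 with all fractions in one fit, 0.05 with animal 155 and 0.03 to 0.05 with 1 animal left out. The bin of longest transcripts (-0.31) was at -0.24 with all fractions, -0.25 with animal 155 and -0.31 to -0.26 with 1 animal left out. In animals 192 and 194 alone, these 2 medians were -0.02 and -0.38, and those of lineage factors 3.18, mural genes -1.08, neural matrix -0.67, classical markers of other cells -0.82, sorted astrocytes -0.61, oligodendrocytes -0.98 and neurons -0.49. In animals 209, 210 and 277 alone, the inflammatory median was 0.65.
Of the named genes that changed direction, only Srrm2 (0.09) passed the test in such a setting, at -0.55 without the positive fractions of 192 and 194 and -0.58 in 209, 210 and 277 alone; it was at -0.10 with the block and at -0.31 to 0.28 with 1 animal left out. Without the positive fractions of 192 and 194, and in animals 209, 210 and 277 alone, Cldn5 was at 0.09 and 0.08, Snap25 at 0.11 and 0.08, Ly6c1 at 0.16 and 0.19, Sparc at -0.02 and -0.09, Atp5b at 0.16 and 0.17 and Xist at -5.78 and -2.87. For Xist, the first setting kept the whole tissue of 192 and 194 (361 and 337 CPM) without their positive fractions. In the second, whole tissue held 3.25, 62.2 and 3.57 CPM of Xist in 209, 210 and 277. With 1 animal left out, Snap25 ranged from -0.15 to 0.01, the latter without 192, Ly6c1 from -0.31 to 0.07, Mmp9 from -0.06 to 1.34, Sparc from -0.01 to 0.21, Rps6 from -0.04 to 0.13, Atp5b from -0.09 to 0.07, Hba-a1 from -0.18 to 0.26 and Hba-a2 from -0.04 to 0.43. Hba-a1 was at -0.20 and Hba-a2 at -0.04 with the block, and Hba-a1 at -0.03 with all fractions and -0.04 with animal 155. With all fractions in one fit and with animal 155, Myh11 was at 0.02 and 0.01 and Col4a2 at 0.19 and 0.18. With 1 animal left out, Col4a2 ranged from -0.59 (without 194) to 0.20, being above 0 without 209, 210 or 277 (0.20, 0.06 and 0.16). In animals 192 and 194 alone, Myh11 was at 0.45, Col4a1 at 0.24, Col4a2 at 0.78, Col1a1 at 0.22, Reln at -0.21, Fos at -0.05, Actg1 at -0.17, Rps6 at -0.13, Hba-a1 at -0.64 and Hba-a2 at -0.44. The causes were not tested. The low total of the whole tissue of 210 limits what low genes can show there.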

Other observations

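Genes of actin and myosin filaments, a set of 32 picked after their values were seen, were higher in 22 cases and lower in 2 (median log2 fold change 1.32), with medians within animals of 1.60 in 192, 2.32 in 194, -0.10 in 209, -0.27 in 210 and 1.01 in 277. With the scaling of the whole series, their summed level in the positive fractions was 38995 CPM in animal 155, 23388 in 192, 39941 in 194, 6904 in 209, 6889 in 210 and 12577 in 277. It was 6819 to 7402 CPM in whole tissue, 6117 to 6943 in input and 6030.4 to 6698 in the negative fractions. In the Aldh1l1 line, whose tag is in astrocytes, it was 12758 to 16099 CPM in the positive and 6538 to 6943 CPM in the negative fractions. Mprip, which links myosin phosphatase to actin, was at 2681 and 5186 CPM in the positive fractions of 192 and 194 and at 279.6, 282 and 1049.6 CPM in those of 209, 210 and 277. Dbn1, drebrin, and Myh9, a nonmuscle myosin, had log2 fold changes of 2.72 and 2.22, which did not pass with the block (edgeR adjusted p = 0.202 and 0.0826). In animals 209 and 210 Dbn1 was at 149 and 144 CPM in the positive fractions and at 182 and 263 CPM in whole tissue. Actg1, cytoplasmic actin, had a log2 fold change of 0.10 that did not pass.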
